A study of Rattus norvegicus with 8 samples.

Results

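The genes described here encode the chondroitin sulfate proteoglycans of the oligodendrocyte lineage and of the perineuronal matrix, with their partners. They are the 10 genes Cspg4, Cspg5, Bcan, Ncan, Vcan, Ptprz1, Tnr, Tnc, Hapln1 and Xylt1, found by symbol among the 32883 genes of the deposited table. Each symbol matched 1 row. Expression was measured by RNA sequencing in primary oligodendrocyte precursor cells (OPCs), glia that divide and can mature into myelin-forming oligodendrocytes, with 4 cultures from male and 4 from female Sprague Dawley rats. Cells of both sexes came from the cerebral cortex of animals 1 to 2 days old. They were grown as mixed glia in 20% serum, collected as the cells that did not adhere, and kept for 4 to 5 days with PDGF and FGF, each at 10 ng/ml, and 2% B27. Sex is the only factor that the labels give as differing between the groups. Nothing in the labels says that the cultures of one sex came from separate animals or litters, so a p-value here speaks of the spread between these 8 samples, and that spread may be technical.

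Chondroitin sulfate proteoglycans are core proteins that carry long sulfated sugar chains, which enzymes of the Golgi build on serine residues. In the brain, the lecticans (Bcan, Ncan, Vcan and Acan) bind hyaluronan through their N-terminal domain, where link proteins of the Hapln family fasten them, and bind tenascin-R through their C-terminal domain, and this meshwork forms the perineuronal nets around neurons. OPCs are themselves known by NG2, the transmembrane proteoglycan that Cspg4 encodes, and they make several matrix proteoglycans that are known to limit axon growth after injury.

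Levels are the authors' FPKM, which scales fragments by transcript length and library size, so that levels of different genes can be compared. Each difference is the male minus the female mean of log2(FPKM + 1), given with its standard error. Called genes are those with an adjusted p under 0.05 by limma, adjusted over all 11263 tested genes. Depth relative to male 1, read from the steps between low values, was 0.553 to 0.769 in the other male cultures. Among female cultures it was 0.304, 0.366, 0.980 and 0.533 for numbers 1 to 4. Male 1 and female 3, the deepest, deviated from their own groups in a similar way (r = 0.242 across 11263 genes, which are not independent replicates). Of 9 OPC markers found, 7 averaged at least 1 FPKM over all cultures and 2, Neu4 and Susd5, did not. Pdgfra was at 229 ± 10.4 FPKM in male and 303 ± 27.8 FPKM in female cultures (SD, n = 4 each).

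The filter of a mean of 1 FPKM over all cultures left 8 of the 10 genes, of which 7 had a lower mean in male than in female cultures. Tnr, Vcan and Bcan passed the test, all lower in male cultures, and 0 of 8 were called higher in male cultures by limma, with 1, Cspg5, at an unadjusted p under 0.05 in that direction. Among all tested genes, 2.89% were called lower and 3.14% higher in male cultures. For 5 of the 8 (Tnr, Vcan, Bcan, Cspg4 and Ptprz1) every male value lay below every female value, as was the case for 6.77% of all tested genes, and the reverse held for none of the 8 and for 7.26% of all. The median log2 difference of the 8 was -0.36, and that of all tested genes was -0.0038. Tnc and Hapln1, at the bottom of the table, stayed below the filter. In a bulk culture, fewer cells of a type and less RNA per cell cannot be told apart.

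**Figure D1:**
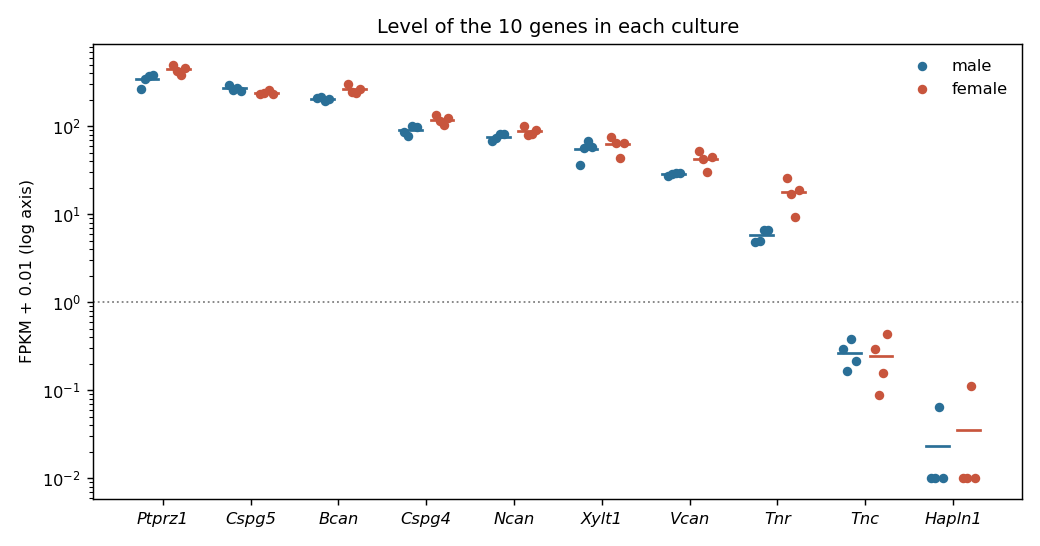
FPKM of the 10 genes in each of 4 male (blue, left) and 4 female (red, right) cultures on a log axis after adding 0.01, with short bars for the means and a dotted line at 1 FPKM, the filter for testing. Ptprz1, Cspg5 and Bcan are the highest and Tnc and Hapln1 lie below the filter; the sexes are farthest apart for Tnr.

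The upstream stretches of these genes are shown first. The 250 bases before the RefSeq start (assembly GRCr8) are shown for the 3 called genes and for Cspg4, which names the cell type, with capitals marking the GC box GGGCGG or its complement CCGCCC.
Tnr, chr13:74624776-74625025, plus strand: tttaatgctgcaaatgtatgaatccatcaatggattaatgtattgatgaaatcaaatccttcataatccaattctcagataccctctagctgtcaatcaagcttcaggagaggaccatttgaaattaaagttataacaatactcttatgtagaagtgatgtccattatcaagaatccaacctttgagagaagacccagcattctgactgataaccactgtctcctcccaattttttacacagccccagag
Vcan, chr2:22595956-22596205, minus strand: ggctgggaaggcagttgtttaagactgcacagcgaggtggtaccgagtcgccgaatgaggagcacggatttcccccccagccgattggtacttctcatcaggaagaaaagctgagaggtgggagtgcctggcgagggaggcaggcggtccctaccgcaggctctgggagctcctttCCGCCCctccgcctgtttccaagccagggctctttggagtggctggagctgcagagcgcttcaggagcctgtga
Bcan, chr2:175765315-175765564, minus strand: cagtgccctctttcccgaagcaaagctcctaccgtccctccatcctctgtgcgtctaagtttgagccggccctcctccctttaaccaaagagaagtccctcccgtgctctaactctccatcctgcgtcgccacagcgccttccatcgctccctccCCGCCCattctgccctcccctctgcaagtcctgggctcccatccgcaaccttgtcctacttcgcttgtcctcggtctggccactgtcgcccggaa
Cspg4, chr8:66160692-66160941, plus strand: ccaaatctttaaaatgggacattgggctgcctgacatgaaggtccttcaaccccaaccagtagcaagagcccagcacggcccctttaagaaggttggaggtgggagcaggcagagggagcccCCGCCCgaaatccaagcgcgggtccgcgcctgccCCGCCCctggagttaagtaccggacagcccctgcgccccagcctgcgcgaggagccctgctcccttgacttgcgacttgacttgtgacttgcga

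The Tnr window held no CpG dinucleotide and 36.8% G and C, against a median of 6 CpG and 52.0% over 27457 promoters of the same length. The windows of Cspg4, Bcan and Vcan held 14, 15 and 12 CpG and 62.0%, 61.2% and 61.6% G and C. Vcan has 2 starts in the table, and the window of the other one, not shown, held 9 CpG. A window was at hand for 8 of the 10 genes, Cspg5 and Ptprz1 being the exceptions. On either strand, GGGCGG was found in Cspg4, Bcan, Ncan, Vcan and Tnc, 5 of the 8, and in 32.4% of all promoters. The SOX core motif ACAAAG was found in Hapln1, 1 of the 8, and in 16.0% of all promoters. TATAAA was found in Ncan and Tnc and in 13.1% of all promoters. A second SOX core, ACAATG, was in none of the 8 windows and in 10.9% of all promoters. The E-box CAGCTG was in none of the 8 either, and in 11.9% of all promoters. Likewise, the E-box CATATG was in none of the 8 and in 3.5% of all promoters. No motif searched here overlapped another in these windows. Such matches describe letters in these windows and say nothing of the factors that bind them.

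Tnr (ENSRNOG00000002468) had the largest difference of the group. It encodes tenascin-R, a glycoprotein that oligodendrocyte lineage cells and some neurons secrete and that links lecticans to each other. The 4 male cultures had 4.81, 4.89, 6.53 and 6.62 FPKM, against 25.8, 17.1, 9.25 and 19.0 FPKM in the 4 female cultures. The values of the sexes did not overlap, although female 3 lay nearer to the male cultures than to any other female one. Tnr averaged 5.71 ± 0.995 FPKM in male and 17.8 ± 6.82 FPKM in female cultures (SD, n = 4 each), so the female mean was 3.11 times the male one. It fell in male cultures by 1.42 ± 0.25 on the log2 scale (adjusted p = 0.0111), and 0.817% of all tested genes had a difference as large or larger. The call was kept with each library left out in turn, with adjusted p from 0.000746 to 0.0412.

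Tnc (ENSRNOG00000058645) encodes tenascin-C, the tenascin of immature and injured brain. It was listed at 0.286, 0.155, 0.372 and 0.205 FPKM in male and at 0.282, 0.0779, 0.146 and 0.429 FPKM in female cultures. These values overlapped fully and were below the filter. With no filter its adjusted p was 0.918. Tnn and Tnxb, the remaining tenascins, were also near 0 in every culture, so Tnr made up 94.4% to 96.9% of the summed tenascin FPKM in male cultures, against 96.4% to 99.0% in female ones. Because Tnr and Tnc belong to a single family, their sex differences were compared directly within each library. The log2 value of Tnr minus that of Tnc averaged 2.41 ± 0.20 in male and 3.86 ± 0.52 in female cultures, a difference of -1.44 (exact two-sided permutation test over 70 assignments, p = 0.0286, the smallest they allow; 0.0429 adjusted over 3 pairs). The pair was chosen with the Tnr difference known, and near 0 the added 1 FPKM keeps Tnc from moving on this scale.

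Of the lecticans, Bcan, Vcan and the scarce Acan were called lower in male cultures and Ncan was not called. Bcan (ENSRNOG00000018798), the gene of brevican, the shortest lectican and a brain-specific one, stood at 209, 215, 194 and 205 FPKM in male and at 302, 246, 237 and 266 FPKM in female cultures. No male value reached the lowest female one. The means were 206 ± 9.14 and 263 ± 28.9 FPKM, a log2 difference of -0.34 ± 0.08 (adjusted p = 0.0281). Bcan no longer passed when male 2, male 3, male 4, female 1 or female 4 was left out on its own (highest adjusted p 0.0896).

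Vcan (ENSRNOG00000029212) encodes versican, a large lectican that OPCs are known to make. The male cultures were close together at 27.3, 28.4, 29.2 and 29.1 FPKM, against 52.2, 42.5, 30.5 and 44.3 FPKM in the female ones. Female 3 lay just above the highest male culture, and the other 3 female cultures stood clear of it. Vcan averaged 28.5 ± 0.854 FPKM in male and 42.4 ± 8.99 FPKM in female cultures (log2 difference -0.53 ± 0.13, adjusted p = 0.0409). Leaving out any single library but female 3 ended the call (adjusted p up to 0.117), and leaving out female 3 gave 0.00274.

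Ncan (ENSRNOG00000048036) encodes neurocan, a lectican of developing brain. It had 67.8, 72.6, 81.3 and 80.4 FPKM in male and 99.6, 79.9, 81.9 and 89.2 FPKM in female cultures. Male 3 and male 4 lay above female 2, so the sexes overlapped. The log2 difference was -0.21 ± 0.09 (adjusted p = 0.2004), and the gene was not called.

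The same family holds Acan, the gene of aggrecan, the main lectican of mature perineuronal nets, which is not among the 10. It was low, at 3.24, 2.53, 2.59 and 2.83 FPKM in male and 8.90, 5.36, 5.32 and 8.96 FPKM in female cultures, and the sexes did not overlap. Its log2 difference was -1.07 ± 0.19 (adjusted p = 0.00828), and the female mean was 2.55 times the male mean. Acan stayed past the threshold with each library left out in turn (adjusted p up to 0.0318). As shares of the summed FPKM of the 4 lecticans, Bcan held 65.8% ± 2.33 in male and 65.7% ± 0.755 in female cultures. Ncan held 24.2% ± 2.10 in male and 22.0% ± 0.790 in female cultures, and Vcan 9.11% ± 0.293 and 10.5% ± 1.31. Acan held 0.792% to 1.05% in male cultures, against 1.43% to 2.19% in female ones. The shares of Bcan, Ncan and Vcan overlapped between the sexes and that of Acan did not.

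**Figure D2:**
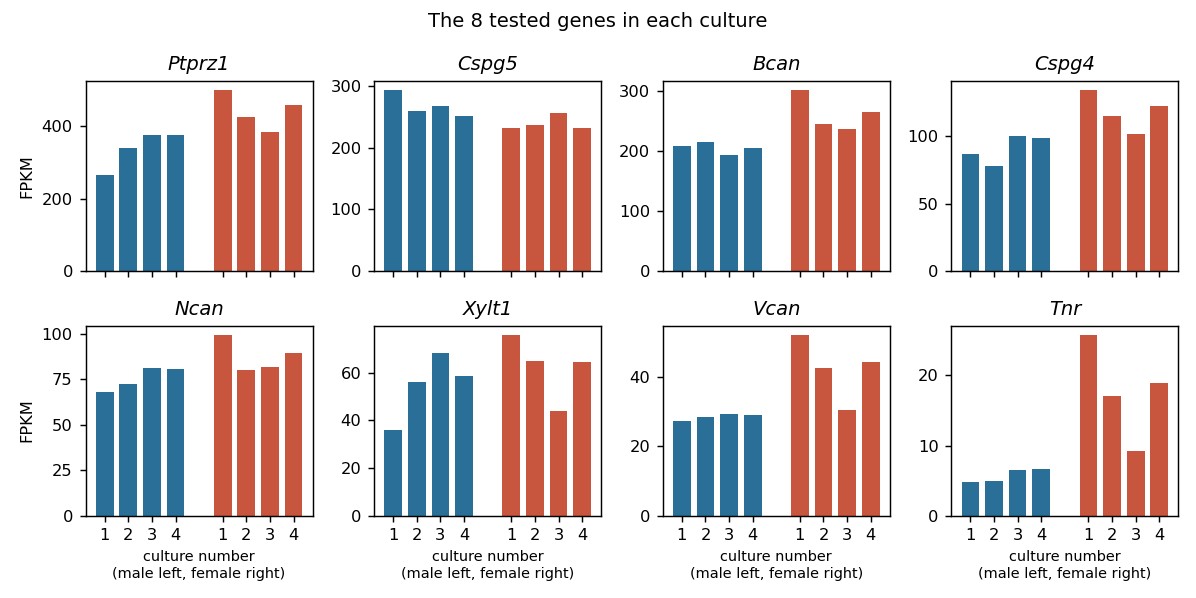
FPKM of each of the 8 tested genes in male cultures 1 to 4 (blue, left) and female cultures 1 to 4 (red, right), 1 bar per culture with no error bar and each panel on its own linear axis from 0. Female 1 is the highest female culture in 7 panels and female 3 the lowest in 6, and Cspg5 is the panel in which the male cultures stand higher on average.

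Link proteins fasten lecticans to hyaluronan, and in the RefSeq gene table of assembly GRCr8 each lectican gene has a link protein gene as its coding neighbour. Vcan lies next to Hapln1, Bcan next to Hapln2, Acan next to Hapln3 and Ncan next to Hapln4. Hapln1 (ENSRNOG00000032002) was listed at 0.0537 FPKM in male 3, at 0.103 FPKM in female 3 and at 0 in the other 6 cultures, although its neighbour Vcan averaged 35.4 FPKM over all 8. With no filter Hapln1 had an adjusted p of 0.925. Hapln2 was listed at 0.326 to 0.590 FPKM in male cultures and at 0 to 0.611 FPKM in female ones, and stayed below the filter. Hapln3 (1.14 ± 0.324 against 0.979 ± 0.863 FPKM, adjusted p = 0.761) and Hapln4 (3.52 ± 0.496 against 3.26 ± 0.894 FPKM, adjusted p = 0.799), male before female, were not called. The hyaluronan synthase genes Has1, Has2 and Has3 were below the filter too, Has1 at 0 throughout.

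The membrane-bound members did not pass the test. Cspg4 (ENSRNOG00000017208) stood at 86.6, 77.9, 100.5 and 98.6 FPKM in male and at 134, 115, 102 and 122 FPKM in female cultures. The highest male culture, male 3, lay just below the lowest female one, female 3. Its means were 90.9 ± 10.6 and 118 ± 13.6 FPKM, and its log2 difference of -0.38 ± 0.10 was close to that of Pdgfra (-0.40 ± 0.07), but the adjusted p was 0.0554. Without female 3 it was 0.0247, and without both male 1 and female 3 it was 0.0448. Leaving out any other single library gave 0.0723 to 0.1498, and rescaling to the same sum gave 0.19.

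Ptprz1 (ENSRNOG00000006030), the highest of the 10, encodes a receptor tyrosine phosphatase whose shed or secreted outer part is the proteoglycan phosphacan. It had 265, 339, 375 and 376 FPKM in male and 499, 424, 383 and 459 FPKM in female cultures. The sexes did not overlap, with male 1 the lowest and female 1 the highest culture. The log2 difference was -0.39 ± 0.12 (adjusted p = 0.0845). The adjusted p was 0.0222 without both male 1 and female 3, 0.0535 to 0.194 with single libraries left out and 0.317 after rescaling to the same sum. The related phosphatase gene Ptprg was not called either (23.5 ± 3.42 FPKM in male and 31.8 ± 4.84 FPKM in female cultures, log2 difference -0.42 ± 0.13, adjusted p = 0.0883).

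Cspg5 (ENSRNOG00000020833) encodes neuroglycan C, a transmembrane proteoglycan with an EGF-like domain. It was the single tested member with a higher mean in male cultures, at 294, 259, 268 and 252 FPKM, against 232, 237, 257 and 232 FPKM in female cultures. Male 4 lay below female 3, so the sexes overlapped. The log2 difference was 0.16 ± 0.07 (adjusted p = 0.188). Within each library, the log2 value of Cspg4 minus that of Cspg5 averaged -1.56 ± 0.21 in male and -1.02 ± 0.23 in female cultures. That difference of -0.54 gave p = 0.0286 in the exact two-sided permutation test, the smallest it allows, and 0.0429 adjusted over 3 pairs. This ratio of both genes does not depend on how a library is scaled, apart from the added 1 FPKM. The genes were chosen with earlier results of these data known. Cspg4 and Cspg5 differed in opposite directions, so this p-value is not independent of their single differences.

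Xylt1 (ENSRNOG00000056658) encodes xylosyltransferase 1, which adds the first sugar of the chain to the core protein. It had 35.8, 56.0, 68.1 and 58.5 FPKM in male and 76.0, 64.8, 43.8 and 64.3 FPKM in female cultures. The sexes overlapped, with male 1 and female 3 the lowest of their groups. The log2 difference was -0.20 ± 0.21 (adjusted p = 0.661), and it was 0.00043 with relative depth as a covariate. Xylt2, its paralog, had 7.61 ± 0.960 FPKM in male and 7.70 ± 1.71 FPKM in female cultures (adjusted p = 0.998). Xylt1 minus Xylt2 differed between the sexes by -0.19 on the log2 scale (exact permutation p = 0.486, also after adjustment over the 3 pairs).

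**Figure D3:**
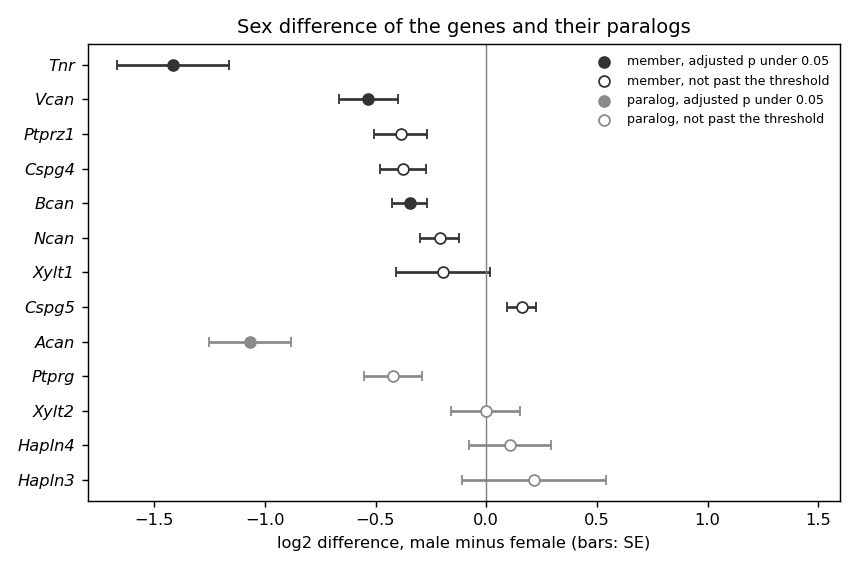
Log2 difference, male minus female, with its standard error for the 8 tested members (black) and their 5 tested paralogs (grey), filled where the adjusted p was under 0.05. Tnr, Vcan and Bcan among the members and Acan among the paralogs are filled, all left of 0, and Cspg5 is the only member to the right of 0.

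Averaged over all 8 cultures, the order of levels was Ptprz1 (389.8 FPKM), Cspg5 (254 FPKM), Bcan (234 FPKM), Cspg4 (105 FPKM), Ncan (81.6 FPKM), Xylt1 (58.4 FPKM), Vcan (35.4 FPKM) and Tnr (11.8 FPKM), with Tnc and Hapln1 under 1 FPKM. By mean, only Cspg5 and Bcan changed places between the sexes, and other neighbours differed in whether their ranges overlapped. In male cultures Cspg5 stood above Bcan in every library, whereas in female cultures the ranges of both genes overlapped and Bcan had the higher mean. Ptprz1 and Cspg5 overlapped in male and not in female cultures, and Cspg4 and Ncan the same. Xylt1 and Vcan did not overlap in male cultures and did in female ones. Ptprz1 was in the top 1.90% of all tested genes by mean level, Cspg5 in the top 2.96% and Bcan in the top 3.22%, while Tnr was near the middle.

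Libraries of one sex also differed in these genes. Female 1 was the highest female culture for 7 of the 8 tested genes, and female 3 was the lowest for 6. Among male cultures, male 1 was the lowest for 5 and male 3 the highest for 4, but Bcan was lowest in male 3 and Cspg4 in male 2. Cspg5 ran the other way, with male 1 the highest male and female 3 the highest female culture. Female 1 was the shallowest library (0.304 of male 1), and male 1 and female 3 were the deepest. With relative depth as a covariate Tnr (adjusted p = 0.00838) and Bcan (0.0472) were still called and Vcan was not (0.0529). Without male 1 and female 3, 5 of the 8 genes were called, Tnr, Vcan, Bcan, Ptprz1 and Cspg4, all lower in male cultures, as were 403 of all 11263 tested genes (3.58%). Female 3 was the lowest female culture for each of these 5 genes, so leaving it out raises their female means.

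Scaling also mattered. The deposited FPKM summed to 648383 to 705322 in male and 675852 to 773919 in female libraries. With each library rescaled to the same sum, Tnr was still called (adjusted p = 0.0178), Bcan (0.122) and Vcan (0.121) were not, and Cspg5 was called higher in male cultures (0.0133). Under that scaling 772 genes were higher and 192 lower in male cultures among all tested genes, against 354 higher and 326 lower with FPKM as deposited. The sign of all 8 members stayed as reported under both that scaling and quantile normalization.

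**Figure D4:**
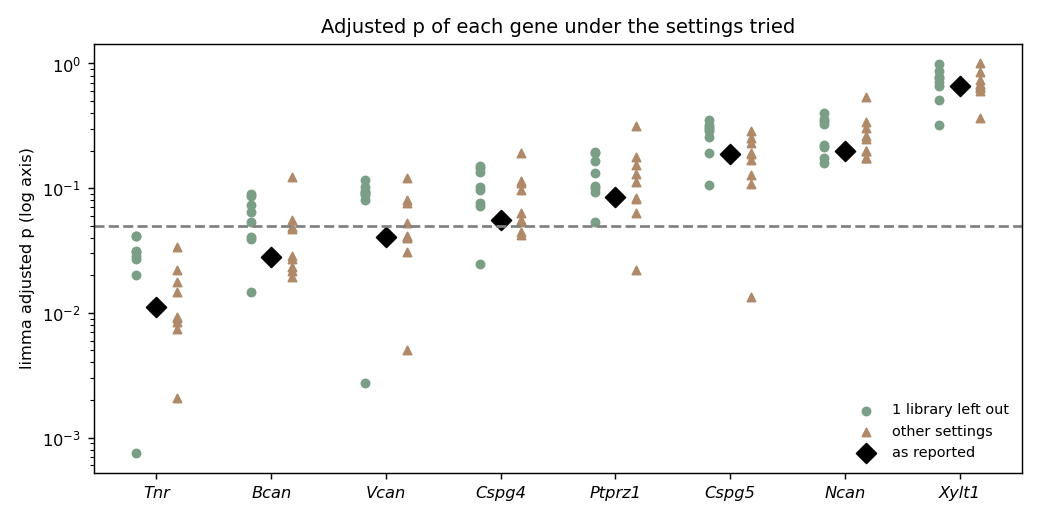
Adjusted p from limma on a log axis for each tested gene as reported (black diamond), with 1 library left out (green circles) and under the other settings (brown triangles); the dashed line is the threshold of 0.05. All points of Tnr lie below the line, those of Bcan, Vcan, Cspg4 and Ptprz1 fall on both sides, and 1 triangle of Cspg5, the rescaled values, lies below it.

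The genes whose profile over the 8 libraries was most like that of Cspg4 were Scarb2, Dock10, Cux2, Limd1 and Arhgap20. Likeness was the root mean square difference between log2 values centred on each gene's own mean, and it ran from 0.0476 for Scarb2 to 0.0698 for Arhgap20. Scarb2, which encodes a lysosomal membrane protein, had 79.6 ± 7.70 FPKM in male and 104 ± 7.97 FPKM in female cultures. For Tnr the nearest genes were Igf1 (0.122), Apobec1 (0.218), Gpr17 (0.229), Luzp2 (0.234) and Myrf (0.237). Gpr17 and Myrf, a receptor and a transcription factor of OPCs that begin to differentiate, had 43.1 ± 3.41 and 5.16 ± 0.907 FPKM in male cultures, against 143 ± 40.3 and 14.0 ± 3.39 FPKM in female ones. Igf1, the gene of an insulin-like growth factor, had 0.666 ± 0.310 FPKM in male and 3.49 ± 1.47 FPKM in female cultures. Apobec1 had 0.415 ± 0.108 FPKM in male and 3.39 ± 1.89 FPKM in female cultures, so both of these nearest genes were under 1 FPKM in male cultures. Likeness includes the difference between the sexes, so the direction of these values follows from how the genes were picked.

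Of 105 further genes of the same pathway, 71 were tested, of which 5 were called lower and 1 was called higher in male cultures. By sign alone, 34 were lower and 37 higher. With libraries rescaled to the same sum, 1 was called lower and 4 were called higher. The 6 of 71 called in FPKM as deposited stand beside 6.04% of all tested genes called in either direction, and the median log2 difference was 0.010. Among genes listed under sulfation of the chain, not all of them sulfotransferase genes, 1 of 10 tested was called. It was Chst7, a chondroitin 6-O-sulfotransferase gene, at 93.1 ± 13.2 FPKM in male and 64.2 ± 5.28 FPKM in female cultures (log2 difference 0.52 ± 0.10, adjusted p = 0.0142), a call lost without male 3 or female 4 (adjusted p up to 0.0529). None of 7 genes of the linker between core protein and chain and none of 6 genes of chain polymerisation were called by limma. The same held for 6 genes of hyaluronan metabolism or binding. These groups had 2, 0 and 1 genes at an unadjusted p under 0.05 by the same test. Both tested ADAMTS protease genes, which can cut lecticans, Adamts4 and Adamts20, were not called either, and neither had an unadjusted p under 0.05.

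Lysosomal enzymes that break down the chains had 2 of 8 tested genes called lower in male cultures, against 2.89% of all tested genes. By sign 7 of the 8 were lower, with a median log2 difference of -0.37. Arsb, the gene of arylsulfatase B, which removes sulfate from the chain, stood at 14.7 ± 1.98 FPKM in male and 21.9 ± 4.05 FPKM in female cultures (adjusted p = 0.0421). Among receptors, ligands and binding partners 2 of 16 were called lower in male cultures, both cell adhesion genes. Ncam1 had 96.9 ± 7.40 FPKM in male and 140.2 ± 21.9 FPKM in female cultures (adjusted p = 0.0148), and Nfasc 15.6 ± 1.31 and 22.4 ± 2.89 FPKM (adjusted p = 0.0233). Ptn, the gene of pleiotrophin, a ligand of the Ptprz1 protein, was the most abundant gene of that list, at 1228 ± 53.4 FPKM in male and 1172 ± 34.5 FPKM in female cultures (adjusted p = 0.540). It is named after its values were seen. Ncam1 dropped out only when male 3 was left out (adjusted p = 0.0523), while Nfasc and Arsb dropped out without 4 and 5 of the 8 libraries in turn. Among them were male 2, male 3, female 1 and female 4 for both genes, with male 1 for Arsb, and the highest adjusted p were 0.0793 and 0.123. With libraries rescaled to the same sum none of these 3 genes was called (adjusted p from 0.0695 to 0.0937).

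Markers of other cell types differed in the same cultures, and their part in the results above was not tested. Microglia had all 10 tested markers lower in male cultures by sign and 7 of them called. Their summed level was 34.8 to 49.4 FPKM in male and 136 to 162 FPKM in female cultures. OPC markers had 3 of 7 tested genes called lower in male cultures, Pdgfra, Sox10 and Gpr17, with sums of 1637 to 1838 FPKM in male and 2026 to 2172 FPKM in female cultures. Gpr17, a gene of OPCs that begin to differentiate, had the largest difference of that list. Its log2 difference was -1.66, against -0.40 for Pdgfra and -0.35 for Sox10. Among all tested genes, 2.89% were called lower in male cultures. Markers of differentiating oligodendrocytes summed to 681 to 825 FPKM in male and 931 to 1117 FPKM in female cultures, with 3 of 11 called, Cnp, Bcas1 and Myrf, all lower in male cultures. By sign, 6 of the 11 were lower and 5 higher in male cultures, with a median log2 difference of -0.057, and Mbp was at 200.4 ± 11.6 and 200.4 ± 25.0 FPKM. Mog (0.57), Mobp (0.54) and Ermn (0.75), named after their values were seen, had positive log2 differences and were not called (adjusted p from 0.205 to 0.399).

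Astrocytes also make Ncan, Ptprz1 and Tnc. Their marker sums overlapped, at 225 to 247 FPKM in male and 225 to 254 FPKM in female cultures, and 0 of 8 tested markers were called by limma (4 at an unadjusted p under 0.05). Aldoc (95.4 FPKM averaged over all cultures) and Slc1a3 (80.4 FPKM) were the largest parts of the astrocyte sums. Gfap averaged 2.17 FPKM and Aqp4 0.18 FPKM. Neurons are a source of several lecticans too. Their marker sums overlapped at 351 to 389 and 322 to 448 FPKM, with Map2 (159 FPKM over all cultures), Dcx (75.4) and Tubb3 (64.9) the largest parts. Of 11 tested markers 4, Gad1, Gad2, Syt1 and Stmn2, were called higher in male cultures, against 3.14% of all tested genes. Gad1 had 19.2 ± 1.77 FPKM in male and 3.93 ± 1.12 FPKM in female cultures. Rbfox3 (limma adjusted p = 0.704) and Snap25 (0.0562) were not called. By sign, 4 of the 11 were lower and 7 higher in male cultures. Pericytes, which express NG2, were represented by low markers, summing to 5.53 to 6.64 FPKM in male and 1.49 to 3.50 FPKM in female cultures. Of those 10 markers 9 were below the filter, Tagln was called higher in male cultures, Kcnj8 and Des were at 0 in every culture, and Pdgfrb was at 0 in every culture but female 1. The 10 fibroblast markers summed to at most 1.35 FPKM in male and 1.00 FPKM in female cultures, with Dcn at 0 throughout, and the 7 endothelial markers found to at most 0.452 and 0.678 FPKM.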

How the data were processed

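RNA was measured in 8 libraries, 4 of male and 4 of female cultures, grouped and numbered by their titles. The authors deposited 1 table of FPKM values for 32883 genes, per the file headers. Per the submitters' processing notes, FastQC and Trimmomatic were used. The sources used here do not give the aligner, the FPKM program, the genome build, the annotation or the use of strand, and the table holds no counts, so absolute depth is unknown.

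Values were taken as log2(FPKM + 1), which understates changes of low genes. Genes averaging 1 FPKM or more over the 8 libraries (11263) were tested with limma 3.58.1 in R 4.3.3 (mean-variance trend, robust), with Benjamini-Hochberg adjustment over all of them and a threshold of 0.05. The code was tested on simulated data, whose planted changes were larger than the difference of every tested gene of the 10 but Tnr. The genes, the lists and the rule for named genes were chosen with earlier results of these data known. The rule takes all 10 genes, their paralogs, up to 4 called genes with the smallest p per list (1 of which is not reported here), fixed cell type markers and the 5 genes most like Cspg4 and Tnr. Where a symbol had more than 1 row (Chsy3), the higher row was used. Relative depth is the commonest ratio between low values of a library and those of male 1. Same-numbered libraries of the sexes showed no shared deviation, which so few libraries cannot exclude, and the numbers were not used as pairs. The alternatives changed pseudocount, filter, scaling, covariate, block, threshold and libraries. Promoter sequences are from RefSeq, assembly GRCr8.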

Additional observations from a re-analysis of the deposited data

Results flagged for a closer look

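Hapln1 stood out in both sexes because a single culture lay apart from the other 3, which were listed at 0. It was listed at 0.0537 FPKM in male 3 and at 0.103 FPKM in female 3. The gap to the nearest other culture, divided by the range of the group, was 1.0 in each sex, above the critical value of 0.829 for 4 samples, as it must be when 3 of 4 values are 0. Chance puts about 1 in 20 groups past that value, and 26 groups were examined. No other gene of the 10, and none of the 3 pairs, had a culture so far apart.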

How the results depend on the processing

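Tnr kept its direction and its call under all 18 alternatives, with log2 differences from -1.68 to -1.04. Bcan lost its call in 7 of the 18 and Vcan in 11. Cspg4 passed in 4 and Ptprz1 in 2. For each gene 1 of these was the looser threshold of 0.1 on the same fit, under which no call can be lost. Members called numbered 1 with the replicate number as a block, 5 without male 1 and female 3, 5 at an adjusted p under 0.1, and 1 to 4 with single libraries left out. All tested genes called numbered 397 with the block, 882 without male 1 and female 3, 1149 at 0.1, and 296 to 808 with single libraries left out. Pathway genes called numbered 3 with relative depth as a covariate, 12 at 0.1, and 1 to 8 with single libraries left out. Xylt1 changed sign to 0.00043 with relative depth as a covariate, at an adjusted p of 0.9995. The causes were not tested. Same-numbered libraries had correlations of deviations from -0.0851 to 0.0767, so no pairing by number was seen. So few libraries cannot show that there was none. The block is given here only. With it Tnr was called (limma adjusted p = 0.0337), and Bcan (0.0556) and Vcan (0.0802) were not. The difference Tnr minus Tnc was -1.44 within the block and -1.60 without male 1 and female 3, and Cspg4 minus Cspg5 was -0.54 and -0.57. Their adjusted p was then 0.188 and 0.15, each from the smallest unadjusted p that these smaller sets of assignments can give. With single libraries left out they ranged from -1.68 to -1.27 and from -0.64 to -0.46, at an adjusted p of 0.0857, again from the smallest unadjusted p possible. FPKM holds no counts, so low genes such as Tnc, Hapln1 and Hapln2 have no interval.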

Other observations

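Other proteoglycan genes, mostly those with heparan sulfate chains, were compared in the same cultures. The small leucine-rich genes Dcn, Bgn, Lum and Fmod were below the filter and were not tested. Of 12 tested genes 0 were called by limma and 2 had an unadjusted p under 0.05, with a median log2 difference of 0.12. Sdc3, the highest of them, which encodes a syndecan of the nervous system, had 130.3 ± 2.88 FPKM in male and 139 ± 2.47 FPKM in female cultures (adjusted p = 0.382). Gpc4, a glypican gene, had 1.504 ± 0.313 FPKM in male and 0.574 ± 0.248 FPKM in female cultures (adjusted p = 0.0962). The sexes did not overlap for either gene, which held for 14.0% of all tested genes. Both are named after their values were seen.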
